A study of Mus musculus with 8 samples.

Results

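These are the gene expression profiles of ileal crypt cells from C57BL/6 mice given vehicle. They are the baseline of a study whose other group received CPT-11 (irinotecan) at 20 mg per kg for 7 days. The vehicle libraries were chosen by their treatment label and make up 4 of the 8 RNA-sequencing libraries. The vehicle itself, the ages of the mice and their sex are not described in the sources used here, and no genetic change is given for either group. Per the labels' protocols, crypts were freed from the opened ileum with EDTA and shaking, strained, collected by centrifugation and dissociated with trypsin, and no sort followed. Any other cell of the mucosa that came off with the crypts could therefore contribute RNA. Whether the 4 libraries came from 4 different mice is not stated, so the spread between libraries may in part be technical. Nothing was tested between groups here, and the values below describe levels, ranks and the spread over the 4 vehicle libraries.

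The crypt is the pocket at the base of the intestinal lining in which the epithelium is renewed. Lgr5-positive stem cells at its base divide between Paneth cells, which secrete antimicrobial peptides and supply niche signals. Their daughters divide in the crypt and mature into absorptive enterocytes, mucus-secreting goblet cells, hormone-secreting enteroendocrine cells and chemosensory tuft cells as they move up.

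The deposited table held 55487 named gene rows of 56030 rows, and the named rows carried between 20670728 and 23323653 estimated counts per library. Between 19428 and 19792 named genes had a count above 0 in each library. Levels are given on 2 scales. CPM, the count per 1000000 counts of the TMM-scaled library size, follows a single gene across libraries. Counts of genes that were highest or lowest in a library are in CPM. The 35 gene lists were chosen with earlier results of these data known, so such counts are no independent support. TPM, the count divided by the table's length column and scaled so that each library sums to 1000000, allows genes to be compared with each other. With 3 counts taken as the limit, a gene with no count in a library could still have been present at up to 0.129 to 0.145 counts per 1000000 of the unscaled library total, and this limit covers counting error only. In total RNA from mixed cells, fewer cells of a type and less RNA per cell cannot be told apart.

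The crypt label was checked against 6 markers of the lineages of the ileal epithelium, and all 6 were measured in every library. Lyz1, the lysozyme of Paneth cells, was at 22299, 17869.7, 21114 and 17096 TPM in vehicle replicates 1 to 4, a mean of 19595 ± 2506 (SD, n = 4) and rank 8 of all named genes. Fabp2, an intracellular fatty acid binding protein of enterocytes, was at 2807, 3792, 2226 and 3789 TPM (3153 ± 773, rank 42). Olfm4, a secreted protein of crypt base stem cells, was at 1126, 887, 851 and 1006 TPM (967 ± 125, rank 129). The ranges of these genes did not overlap, so their order was the same in each of the 4 libraries. Muc2, the gel-forming mucin of goblet cells, followed at 316, 387, 249 and 437 TPM (347 ± 82.2, rank 309). Chga, a granin of enteroendocrine secretory granules, was at 73.3, 87.3, 67.0 and 74.6 TPM (75.6 ± 8.47, rank 1200). Lgr5, the receptor for R-spondins that marks crypt base stem cells, was at 3.90, 3.18, 3.08 and 3.35 TPM (3.38 ± 0.365, rank 9209). Libraries 2 and 4 were the higher ones for Fabp2 and Muc2, and library 1 was the highest for Lyz1, Olfm4 and Lgr5 on the TPM scale. With the summed exon length from GENCODE in place of the table's length, Muc2 was at 176 and Lgr5 at 1.92 TPM, and the order of the 6 genes did not change.

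**Figure D1:**
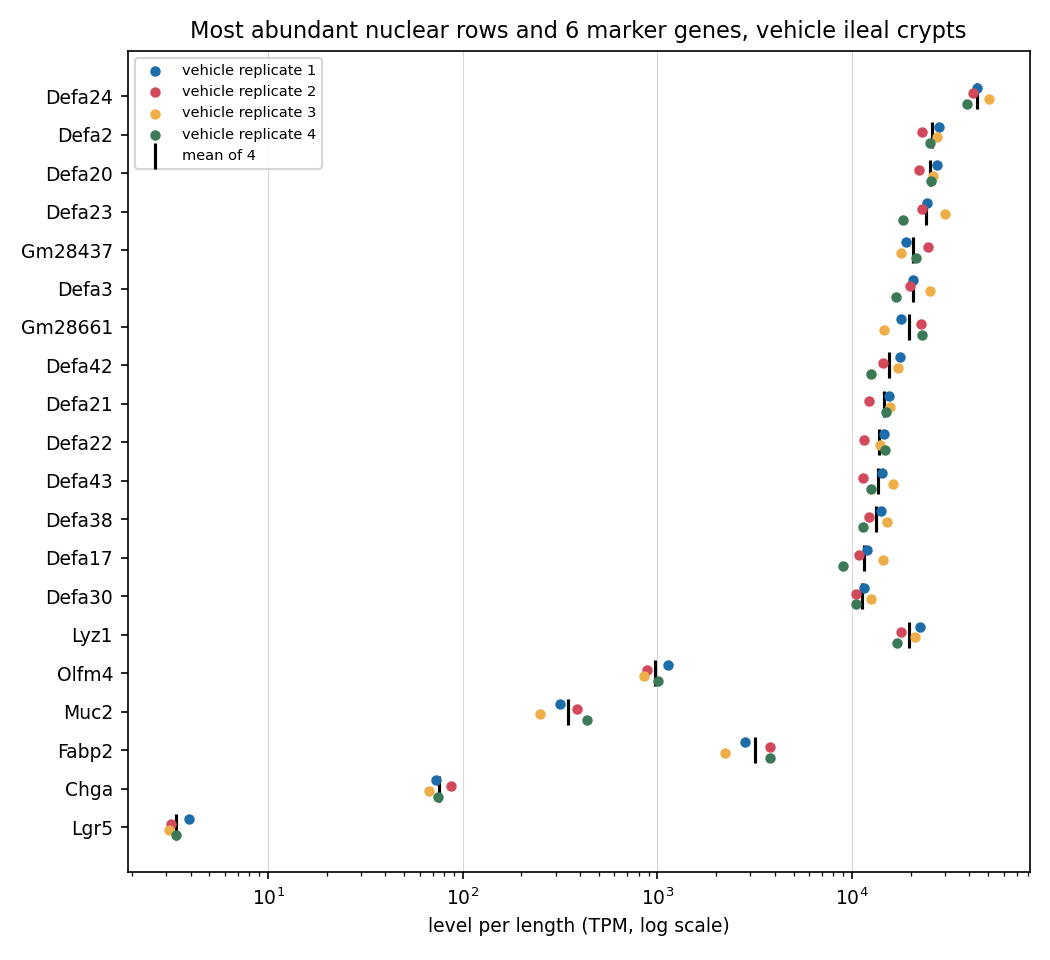
Transcript level per length (TPM, log axis) of the most abundant nuclear gene rows and of 6 lineage markers, 1 point per vehicle library and a bar at the mean of 4. Alpha-defensin genes fill most of the top of the list, Lyz1 lies among them with a mean of 19595 TPM, and Lgr5 lies at the bottom with a mean of 3.38 TPM.

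The leading transcripts encoded alpha-defensins (cryptdins), small cationic peptides that Paneth granules release into the crypt. The stretches below are shown because alpha-defensin genes fill most of the highest ranks and the letters by which they differ decide how reads can be assigned among them. Each is the last 111 coding bases before the stop codon, the end of the coding sequence that holds the mature peptide, read 5′ to 3′ from GENCODE M21 transcripts on GRCm38. Capitals mark bases that differ from Defa24, which is in lower case throughout. Defa2 belongs to another subgroup of the family and is printed without marks.
Defa24: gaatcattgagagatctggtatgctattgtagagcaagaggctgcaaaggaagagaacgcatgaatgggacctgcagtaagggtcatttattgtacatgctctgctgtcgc
Defa30: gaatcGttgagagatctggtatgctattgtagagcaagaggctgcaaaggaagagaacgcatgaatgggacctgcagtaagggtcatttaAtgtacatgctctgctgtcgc
Defa23: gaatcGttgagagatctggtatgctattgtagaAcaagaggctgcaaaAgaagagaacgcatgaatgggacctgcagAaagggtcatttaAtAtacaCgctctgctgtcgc
Defa3: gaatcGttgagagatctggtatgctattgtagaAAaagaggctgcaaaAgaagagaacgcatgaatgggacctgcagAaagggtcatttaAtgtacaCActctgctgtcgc
Defa2: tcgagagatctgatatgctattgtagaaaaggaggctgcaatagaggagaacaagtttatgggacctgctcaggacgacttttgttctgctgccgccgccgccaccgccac
All lie on the plus strand of chromosome 8. In Defa24 the stretch spans 2 exons at chr8:21734705-21735374, in Defa30 chr8:21134831-21135500, in Defa23 chr8:21055249-21055918 and in Defa3 chr8:21287611-21288280, and in Defa2 it lies in 1 exon at chr8:21379289-21379399. Over these 111 bases Defa30 differed from Defa24 at 2 positions, Defa23 at 7 and Defa3 at 8. Defa20, Defa32 and Defa33 had 0 differences from Defa2. The share of a gene's 75-base words found in the transcripts of another gene was 6.67% for Defa24, 20.7% for Defa30, 89.9% for Defa23, 87.8% for Defa3 and 100% for Defa2. Over the 31 measured defensin rows the median of this share was 56.4%. With 31-base words the share was 57.1% for Defa24 and 70.4% for Defa30, and the median was 84.8%. How reads shared by near-identical rows were counted is not stated, and the level of a single defensin gene is therefore uncertain.

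Defa24 was the most abundant named gene, at 43777, 41523, 50305 and 39002 TPM (43652 ± 4845). It was highest in library 3 and lowest in library 4. Defa2 followed among nuclear genes with 25752 ± 2264 TPM, then Defa20 with 25218 ± 2313, Defa23 with 23878 ± 4928 and Defa3 with 20543 ± 3482. Defa42, Defa21, Defa22, Defa43, Defa38, Defa17 and Defa30 lay between 11233 and 15446 TPM. The 45 rows whose names start with Defa, a set collected by name after the values were seen, summed to 30.4%, 26.2%, 32.7% and 26.7% of the per-length total (29.0% ± 3.11, n = 4). Of these rows 31 were detected, meaning at least 1 CPM in all 4 libraries, and 11 had no count in any vehicle library. Among the 31 detected rows, 29 were highest in library 3 in CPM, against 26.7% of all detected genes. In TPM, Defa2, Defa20 and Defa42 were highest in library 1 and Defa22 in library 4.

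The Paneth cell list held 31 genes and all were detected. Its sum was 29.3%, 25.5%, 32.0% and 24.8% of the per-length total (27.9% ± 3.38). Of the 31 genes 28 were highest in library 3, against 26.7% of all detected genes. Beyond the defensins and Lyz1, the list contains Itln1, a lectin that binds microbial glycans, at 10174 ± 1936 TPM, and Ang4, a ribonuclease with antimicrobial activity, at 2664 ± 369 TPM. Mptx2, a pentraxin of Paneth cells, was at 1067, 837, 1025 and 436 TPM, so that library 4 lay below the other 3. Mmp7, the protease that activates pro-defensins in mouse Paneth cells, was at 511 ± 82.4 TPM. Clps, the lipase cofactor colipase, was at 645 ± 112 TPM. The lowest member was Mptx1, a relative of Mptx2, at 6.01 ± 1.90 TPM.

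Mitochondrial transcripts were the other large class. The 15 listed genes of the mitochondrial genome summed to 7.10%, 8.96%, 6.41% and 8.89% of the per-length total (7.84% ± 1.28), higher in libraries 2 and 4 than in libraries 1 and 3. mt-Co1, a catalytic subunit of cytochrome c oxidase, was at 30768, 39068.5, 28481.5 and 36128 TPM (33611 ± 4848) and had the highest count of all genes. mt-Cytb, a subunit of the cytochrome bc1 complex, was at 8954 ± 1638 TPM. Rows of a nuclear copy of mitochondrial sequence on chromosome 1 were also among the most abundant. They lie between chr1:24612407-24612700 and chr1:24615706-24616197 of GRCm38, where 6 unprocessed pseudogene rows summed to 6.14% ± 1.05 of the per-length total. These rows were chosen after their values were seen. Gm28661, whose 31-base words all occur in mt-Co2, took 95.4% of the counts of that pair, and Gm28437 took 87.8% of the counts of its pair with mt-Co3. Gm29216, in contrast, held 5.21% of its pair with mt-Co1. Levels of mt-Co2, mt-Co3, mt-Atp6, mt-Nd3 and mt-Nd4l taken alone are therefore uncertain, and the level booked to Gm28437 (20609.8 ± 3033 TPM, rank 6) cannot be told apart from mitochondrial RNA. Cytosolic ribosomal protein rows, collected by name after the values were seen, summed to 8.29% ± 0.314. Of the 81 detected rows, 69 were highest in library 3 and 71 lowest in library 1 in CPM, against 26.7% and 25.1% of all detected genes. As a share of the per-length total, libraries 1 and 2 were close, at 8.019% and 8.023%.

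Of the 55487 named genes, 12000 (21.6%) were detected and 31807 had no count in any of the 4 libraries. The median detected gene was at 10.0 TPM, with quartiles at 3.64 and 27.6 TPM. A level of at least 100 TPM was reached by 921 genes, at least 1000 TPM by 123 and at least 10000 TPM by 19. The 10 most abundant genes held 24.8% ± 0.996 of the per-length total, the top 100 held 58.2% ± 0.826 and the top 1000 held 82.5% ± 0.652. Protein-coding genes made up 11363 of the detected genes, and all 21974 protein-coding rows of the table held 94.1% of the counts. The 5614 lincRNA rows, of which 119 were detected, held 0.181%. The 354 nuclear rows annotated as ribosomal RNA, of which 1 was detected, held 0.512%. Outside the defensin, mitochondrial and ribosomal rows, the most abundant transcripts included the Paneth genes Lyz1 and Itln1. At lower levels came Zg16, Apoa1 and the translation factor Eef1a1 (5829.7 TPM), the last of which was chosen after its value was seen.

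The epithelial lineage lists differed widely in summed level. After Paneth cells (27.9%) came goblet cells with 1.85% ± 0.239 of the per-length total and enterocytes with 1.71% ± 0.399. The library ranges of goblet cells (1.60% to 2.09%) and enterocytes (1.32% to 2.18%) overlapped. Crypt base stem cells (0.127% ± 0.0150) and enteroendocrine cells (0.111% ± 0.00546) also overlapped, while M cells (0.0209% ± 0.00148) and tuft cells (0.00287% ± 4.19e-04) lay apart. These sums depend on which genes a list holds, and 1 gene carried a large part of several. Olfm4 made up 76.1% of the stem cell sum, Pglyrp1 79.3% of the M cell sum, Reg4 44.7% of the enteroendocrine sum, Apoa1 41.2% of the enterocyte sum and Zg16 39.7% of the goblet sum. As a share of counts, without division by length, Paneth genes held 11.8% and stem cell genes 0.222%. None of these sums is a cell proportion.

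**Figure D2:**
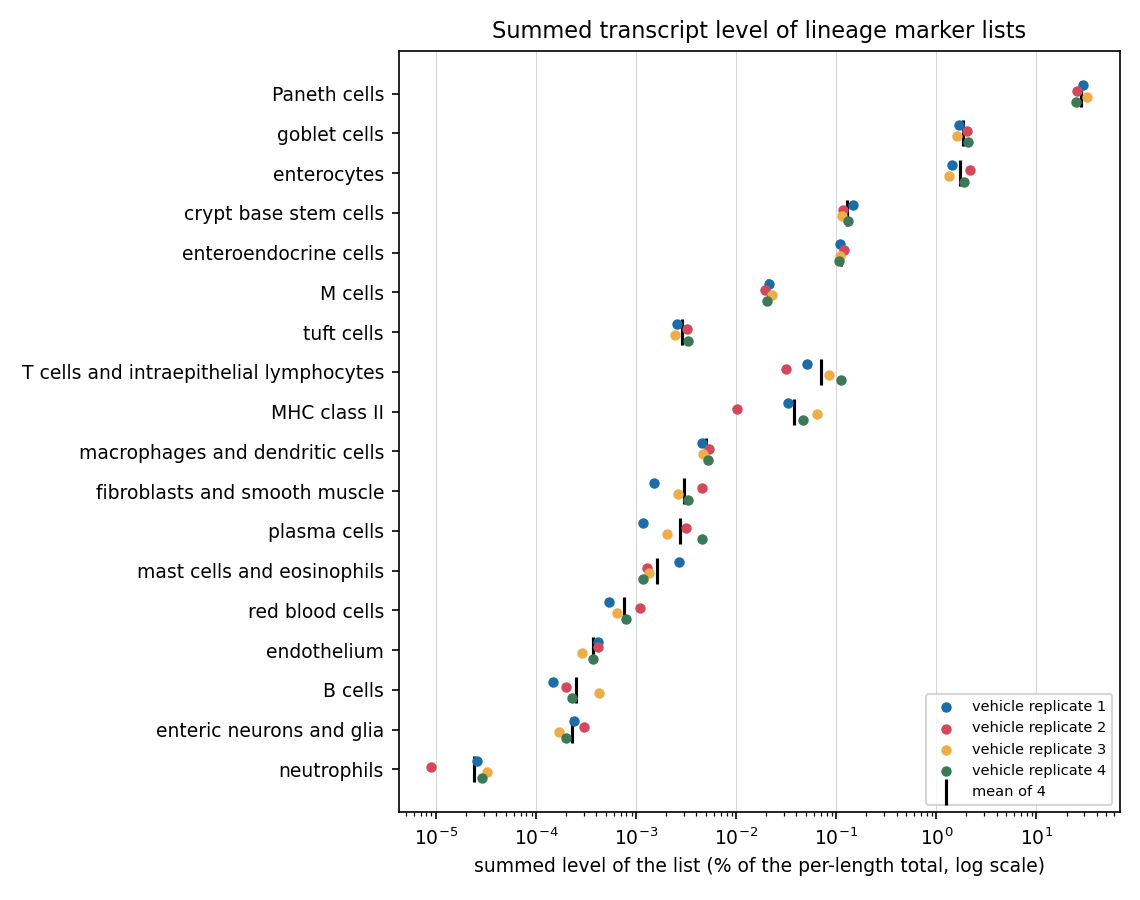
Summed level of each marker list as a percent of the per-length total (log axis), 1 point per vehicle library and a bar at the mean of 4. Paneth cell genes lie at 24.8% to 32.0%, tuft cell genes at 0.00247% to 0.00326%, and the MHC class II points lie far apart, from 0.0101% in replicate 2 to 0.0636% in replicate 3.

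All 20 stem cell genes were detected, and 14 of them were highest in library 1, against 29.9% of all detected genes. Apart from Olfm4 the levels were modest. Cdca7, a chromatin protein of dividing crypt cells, was at 46.3 ± 4.39 TPM. Slc12a2, a sodium-potassium-chloride cotransporter, was at 40.9 ± 7.00 TPM, and Smoc2, a secreted matrix protein, was at 34.8 ± 2.77 TPM. Axin2, a feedback inhibitor of Wnt signalling, was at 24.3 ± 2.97 TPM. Ascl2, a transcription factor of the stem cell state, was at 7.29 ± 0.884 TPM, and Znrf3, a ubiquitin ligase that removes Wnt receptors, was lowest in the list at 1.41 ± 0.234 TPM. In CPM, Lgr5 was at 14.4, 12.3, 12.7 and 12.7 (13.02 ± 0.927), a coefficient of variation (CV, SD over mean) of 7.12%. The median CV of the stem cell genes was 8.70%, near the 9.33% of all genes with a mean of at least 10 CPM.

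Of the 20 goblet cell genes 19 were detected and 11 were highest in library 4, against 21.6% of all detected genes. Zg16, a lectin of the mucus layer, was at 6179, 8502, 5699 and 8951 TPM (7333 ± 1631, rank 24). Tff3, a trefoil peptide, was at 3206, 4036, 3246 and 4455 TPM (3736 ± 613). Both were higher in libraries 2 and 4 than in 1 and 3, the split also seen for Muc2. Spink4, a protease inhibitor, showed another order with 3020.4, 2753, 3150.1 and 2327 TPM. Agr2, a protein disulfide isomerase that mucin folding needs, was at 1219 ± 114 TPM, and the goblet cell transcription factor Spdef was at 28.3 ± 1.18 TPM. Retnlb, a resistin-like protein of goblet cells induced in inflammation, had no count in any library and was not detectable at this depth.

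The enteroendocrine list showed a small spread between libraries as a sum (0.106% to 0.119%), although single hormones did not. Of 25 genes 23 were detected. Reg4, a lectin found in enteroendocrine and secretory precursor cells, was highest at 495 ± 56.1 TPM. Among hormone precursors, Gip was at 81.4, 100.8, 85.3 and 58.2 TPM, Gcg, the source of GLP-1, at 85.0, 67.2, 70.3 and 82.0 TPM, and somatostatin (Sst) at 65.6, 85.9, 67.3 and 56.0 TPM. Gip and Sst were lowest in library 4. Nts (neurotensin) ran the other way with 49.9, 85.9, 43.1 and 106 TPM, as did Sct (secretin) with 47.0, 69.6, 49.4 and 92.3 TPM and Pyy (peptide YY) with 19.5, 29.0, 16.6 and 38.9 TPM, each highest in library 4. Cck was at 24.5 ± 3.84 TPM and Ghrl (ghrelin) at 13.95 ± 3.10 TPM. Tph1, the enzyme that starts serotonin synthesis in enterochromaffin cells, was at 6.61 ± 1.37 TPM. The progenitor factor Neurog3 was at 2.29 ± 0.618 TPM. Insl5, a hormone of the large intestine, had no count.

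Tuft cell transcripts were scarce. Of 19 genes 13 were detected, the list sum differed 1.29-fold between the highest and lowest library in CPM, and no member reached a mean of 10 CPM. Rgs13, a regulator of G-protein signalling, was at 3.71, 4.13, 3.30 and 4.03 TPM. Trpm5, the taste transduction channel, was at 2.88 ± 0.454 TPM, Dclk1, a kinase used as a tuft cell marker, at 1.38 ± 0.195 TPM, and Pou2f3, the factor that tuft cells require, at 0.907 ± 0.181 TPM. Il25, the cytokine by which tuft cells signal to innate lymphoid cells, was at 0.157 ± 0.109 TPM with no count in library 4. Of the 9 M cell genes measured, 6 were detected, and the one that carried the sum, Pglyrp1, is a peptidoglycan recognition protein that is not restricted to M cells. Gp2, the uptake receptor of mature M cells, was at 0.509, 1.49, 0.407 and 1.52 TPM, and Sox8 had counts in library 2 alone.

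All 30 enterocyte genes were detected, and 25 of them were highest in library 2, against 21.8% of all detected genes. Apoa1, an apolipoprotein of chylomicrons and HDL, was at 5596, 9827, 5747 and 6984 TPM (7039 ± 1960.2, rank 25). Anpep, a brush border aminopeptidase, was at 862 ± 123 TPM, Krt20, a keratin of mature epithelium, at 503 ± 87.6 TPM, and Sis, sucrase-isomaltase, at 152 ± 11.3 TPM. Sis varied little (738, 792, 718 and 689 CPM, CV 5.91%). Lct, the disaccharidase lactase, varied more, with 453, 882, 564 and 279 CPM (CV 46.6%), and was highest in library 2 and lowest in library 4. A set of 7 enterocyte genes (Fabp1, Apoa4, Apoc3, Slc2a2, Pck1, Slc28a1 and Pdk4) was highest in library 2 and lowest in library 4. This held in 7 of 7 cases, but the set was collected after its values were seen, so the count is no independent support. Fabp1, the liver-type fatty acid binding protein, was at 137, 252, 175 and 44.3 CPM.

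Genes of bile acid recovery, the specialty of the ileum, were highest in library 4. Fabp6, the ileal bile acid binding protein, was at 369, 234, 171 and 1359.7 CPM, so that library 4 held 7.95 times the level of library 3 and stood apart from the other 3 libraries. Slc10a2, the apical bile acid transporter, was at 8.996, 5.82, 4.38 and 21.7 CPM. The subunits of the basolateral exporter followed with smaller gaps, Slc51a at 196, 231, 200.1 and 306 CPM and Slc51b at 70.6, 80.8, 67.5 and 118 CPM. Fgf15, the ileal hormone that restrains bile acid synthesis in the liver, was at 31.7, 29.8, 20.9 and 38.8 CPM, and its inducer Nr1h4, the bile acid receptor FXR, at 71.2, 73.6, 66.8 and 84.5 CPM. All 6 were highest in library 4, and 5 of them were lowest in library 3. Slc51a was the exception, lowest in library 1. Nr0b2 (1.80, 2.62, 1.23 and 2.23 CPM) and Amn (123, 192, 145 and 173 CPM), also in the ileal list, were highest in library 2. Over all detected genes, 21.6% were highest in library 4 and 24.9% lowest in library 3. The 12 genes of the ileal list were all detected. Of these, 8 were highest in library 4, 3 in library 2 and 1 in library 1, and 10 were lowest in library 3. Their sum was 0.198% ± 0.157 of the per-length total, and Fabp6 made up 69.5% of it. Without library 4 the mean sum was 0.121%.

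The 250 bases upstream of the Fabp6 start (RefSeq, GRCm38.p6, minus strand, chr11:43601563-43601812) are shown because Fabp6 had the highest CV of the named genes with a mean of at least 10 CPM and is a known FXR target. FXR binds inverted repeats of a half-site separated by a single base, and the search used AGGTNANTNACCT and TATAAA on both strands, which do not overlap. Capitals mark the matches.
Fabp6: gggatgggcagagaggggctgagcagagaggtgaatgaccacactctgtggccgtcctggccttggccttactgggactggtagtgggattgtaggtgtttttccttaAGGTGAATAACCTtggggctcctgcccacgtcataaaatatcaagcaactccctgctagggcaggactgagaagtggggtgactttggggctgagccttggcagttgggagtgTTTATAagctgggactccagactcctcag
The inverted repeat AGGTGAATAACCT began 142 bases upstream of the start, and TATAAA, read on the opposite strand, began 29 bases upstream. In windows of the same length (250 bases before to 50 after each start), AGGTNANTNACCT occurred in 7 of 32851 promoters (0.0213%) and TATAAA in 13.6%. The windows of Slc10a2, Slc51a and Slc51b held neither. A match is a description of the sequence only.

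The list of genes that are higher in the proximal small intestine than in the ileum had 9 of 12 members detected. Of these 6 were highest in library 2 and 7 were lowest in library 4, against 21.8% and 24.1% of all detected genes. The list includes Gip and Lct, described above. Cyp3a11, a drug-metabolising cytochrome P450, was at 55.7, 90.8, 51.6 and 42.3 CPM. Gata4, the transcription factor that keeps proximal identity and restrains ileal bile acid genes, was at 73.2, 82.7, 92.2 and 55.0 CPM, lowest in library 4 and highest in library 3. Pdx1 had counts in libraries 2 and 3 alone. Summed in CPM, the proximal list was at 783, 1319, 909 and 553 and the ileal list at 1208, 1318, 974 and 2500.3. Whether the ileum was sampled at the same distance from the caecum for each library is not given in the sources used here. The part of the sampled stretch in this pattern was not tested.

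**Figure D3:**
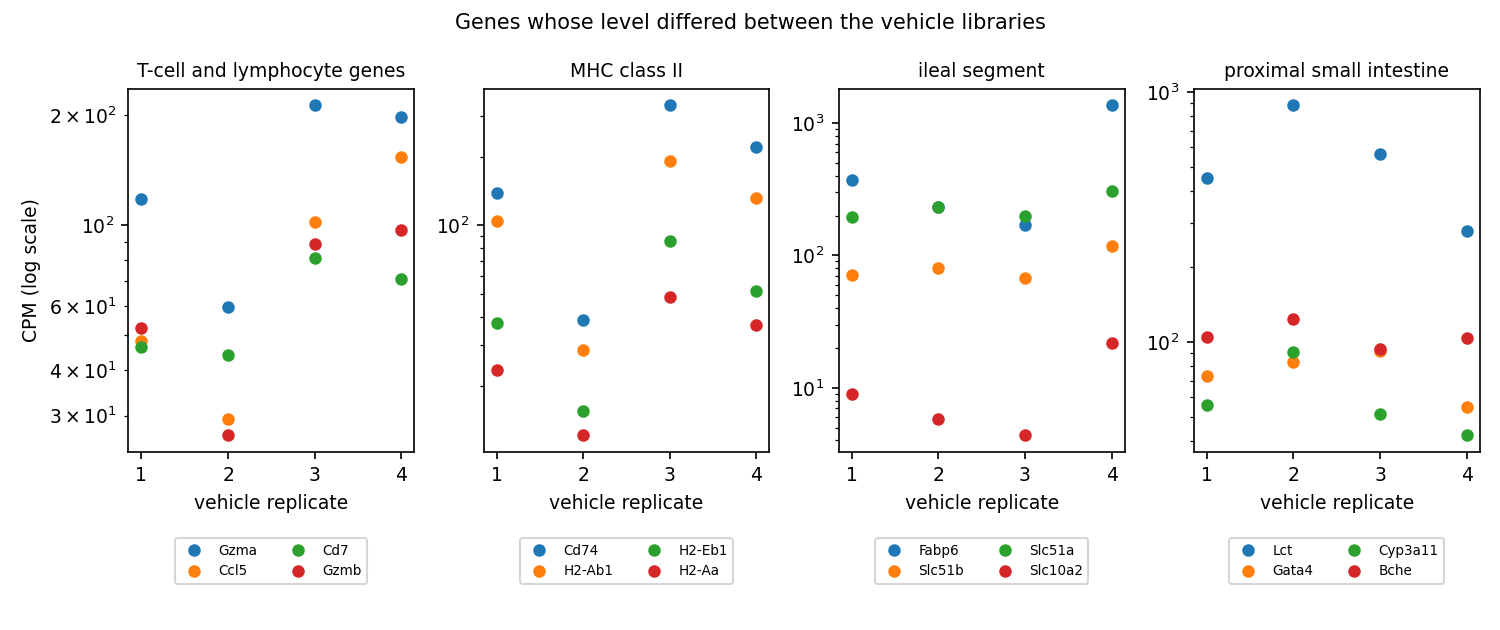
CPM (log axis, a scale of its own in each panel) of 4 genes from each of 4 lists in vehicle replicates 1 to 4. Fabp6 and Slc10a2 were highest in replicate 4 (1359.7 and 21.7 CPM), Lct was lowest there (279 CPM), and the MHC class II genes were lowest in replicate 2.

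The pan-epithelial list and the intestinal transcription factors differed little between libraries as sums. All 15 pan-epithelial genes were detected with a sum of 1.33% ± 0.0763, led by the keratin Krt8 (3199 ± 188 TPM), the lectin Lgals4 (2684 ± 162 TPM), the keratin Krt19 (1838 ± 129 TPM) and the adhesion molecule Epcam (1115 ± 173 TPM). All 30 intestinal transcription factors were detected, and their CPM sum differed 1.06-fold between the highest and lowest library. Isx, a homeobox factor that controls vitamin A uptake, was at 263 ± 43.3 TPM, Hnf4a at 225 ± 15.3 TPM, Elf3 at 214 ± 6.28 TPM and Cdx1 at 157 ± 7.26 TPM. Cdx2, the master factor of intestinal identity, was at 88.6 ± 7.98 TPM. Of 12 genes listed for the colon 5 were detected, among them Sst, which the small intestine also makes, and the chloride exchanger Slc26a3 (32.8 ± 4.90 TPM). Another 5 had no count in any library, including Car1 and Hoxd13. Of 11 stomach genes 1 was detected (Gkn3, 2.995 ± 0.977 TPM) and 6 had no count, among them Muc5ac and Atp4b.

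Genes of the niche pathways were expressed at low to moderate levels. Of 32 listed genes 30 were detected, 17 of them highest in library 1, against 29.9% of all detected genes. Their median CV was 11.5%, against 9.33% of all genes with at least 10 CPM, and the CPM sum differed 1.10-fold between the highest and lowest library. Ctnnb1 (beta-catenin), the effector of Wnt signalling, was highest at 251 ± 33.6 TPM. Among ligands, Wnt3, the Wnt of Paneth cells, was at 6.09 ± 1.03 TPM, the Notch ligands Dll1 at 10.2 ± 0.760 TPM and Dll4 at 3.26 ± 0.373 TPM, and Egf at 1.11 ± 0.106 TPM. Among receptors, Erbb3 was at 81.0 ± 9.39 TPM, Fzd5, a Frizzled receptor of crypt cells, at 62.6 ± 6.96 TPM, Lgr4 at 23.8 ± 3.75 TPM, Egfr at 2.43 ± 0.357 TPM and Notch1 at 2.42 ± 0.270 TPM. Among targets, the BMP-responsive Id1 was at 79.2 ± 7.44 TPM, Id3 at 73.0 ± 6.44 TPM and the Notch target Hes1 at 27.1 ± 0.580 TPM. Wnt9b was the lowest member, with a few counts in each library (0.0459 ± 0.0199 TPM).

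The cell division lists were detected in full. All 39 DNA replication genes summed to 0.0905% ± 0.00690, led by Pcna, the polymerase clamp, at 127 ± 9.11 TPM and Pold2, a subunit of DNA polymerase delta, at 53.8 ± 5.15 TPM. The helicase subunit Mcm6 was at 49.0 ± 5.12 TPM and Gins3 was lowest at 2.06 ± 0.235 TPM. All 35 mitosis genes summed to 0.103% ± 0.0120, led by Ube2c (123 ± 10.6 TPM), Cdk1 (72.5 ± 7.20 TPM), Birc5 (69.5 ± 10.2 TPM) and Cdc20 (68.5 ± 9.11 TPM), which drive entry into and exit from mitosis. Library 2 was the lowest for 29 of the 35 mitosis genes and 26 of the 39 replication genes, against 25.9% of all detected genes. Mki67, the proliferation antigen Ki-67, was at 201, 119, 138 and 136 CPM, highest in library 1. Top1, topoisomerase I and the target of the drug used in the study's other group, was at 74.9, 61.9, 59.5 and 67.3 CPM, or 20.9 ± 3.05 TPM.

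Of 26 defence genes 16 were detected. After Ang4, the highest were Lypd8, an antibacterial GPI-anchored protein, at 1650.1 ± 90.6 TPM, Reg3b, a bactericidal lectin, at 1399.9, 1443, 1059 and 738 TPM, and Pigr, the receptor that carries IgA across the epithelium, at 605 ± 84.4 TPM. Reg3g, another bactericidal lectin, was at 566, 473, 315 and 266 TPM, so both lectins were lower in libraries 3 and 4 than in 1 and 2. S100a9, a calprotectin subunit, had no count. Of 25 inflammasome and pyroptosis genes 17 were detected, and their CPM sum differed 1.04-fold between the highest and lowest library. Nlrp6, a sensor expressed in intestinal epithelium, was at 177 ± 7.79 TPM, Pycard, the adaptor ASC, at 144 ± 10.2 TPM, Casp1 at 80.8 ± 7.91 TPM and Gsdmd, the pore-forming gasdermin that Casp1 cleaves, at 67.5 ± 11.7 TPM. The cytokine Il18 was at 20.5, 30.2, 21.2 and 17.7 TPM. Aim2, the sensor of cytosolic DNA, was low, at 0.934, 1.25, 0.780 and 1.68 TPM, and Il1a had counts in library 4 alone. The Gsdmc rows share sequence (39.3% of the 75-base words of Gsdmc2 occur in another gene), and together they held 0.0131% ± 0.00189 of the per-length total.

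Interferon-stimulated genes were higher in library 4. Of 46 listed genes 39 were detected, and 36 of these were highest in library 4, against 21.6% of all detected genes. Summed in CPM the list was at 621, 537, 704 and 1056. Oas1a, an oligoadenylate synthetase that senses double-stranded RNA, was at 17.1, 12.9, 20.0 and 55.5 CPM. Irf7, a master regulator of type I interferon, was at 34.0, 43.3, 36.3 and 89.4 CPM, and Oasl2 at 17.2, 15.99, 19.9 and 52.6 CPM. For these 3 genes library 4 stood apart. Psmb8 and Psmb9, subunits of the immunoproteasome, had another order, with 58.5, 43.3, 91.7 and 78.9 CPM and 47.6, 33.1, 65.2 and 56.8 CPM, highest in library 3.

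MHC class II genes, which present antigen to CD4 T cells and are carried by antigen-presenting cells and by intestinal epithelium, had the largest ratio of highest to lowest library among the fixed lists with at least 5 genes detected. Their CPM sum was 329, 105, 717 and 481, a 6.81-fold range, and 7 of 7 detected genes were highest in library 3 and lowest in library 2. Over all detected genes these shares were 26.7% and 25.9%. Cd74, the invariant chain, was at 139, 38.8, 334 and 221 CPM, H2-Ab1 at 104, 28.6, 191 and 132 CPM and H2-DMb1, a peptide loading factor, at 7.79, 1.14, 19.2 and 12.4 CPM. Ciita, the transactivator of these genes, was at 3.88, 1.53, 7.19 and 4.50 CPM. None of the 10 B-cell genes was detected, and their CPM sum was 2.49, 2.64, 7.10 and 3.26, also highest in library 3. The macrophage and dendritic cell sum was 65.1, 81.5, 70.8 and 78.7 CPM, with library 2 the highest.

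T-cell and intraepithelial lymphocyte genes were present in every library. Of 20 listed genes 18 were detected, 15 of them highest in library 4 and 16 lowest in library 2. Over all detected genes these shares were 21.6% and 25.9%. The CPM sum of the list was 433, 297, 777 and 936. Gzma and Gzmb, granzymes of cytotoxic lymphocytes, were at 118, 59.4, 213 and 198 CPM and at 52.3, 26.5, 88.5 and 96.9 CPM. The chemokine Ccl5 was at 48.0, 29.4, 102 and 153 CPM. Itgae, the integrin chain that holds lymphocytes in the epithelium, was at 25.9, 20.98, 47.5 and 64.2 CPM and Cd8a at 29.7, 24.6, 51.8 and 59.4 CPM. In all 5, libraries 3 and 4 were above libraries 1 and 2. Cd4 was far lower, at 0.359 ± 0.235 TPM against 16.1 ± 6.397 TPM for Cd8a. The part of carried-along lymphocytes in the MHC class II and interferon-stimulated differences was not tested.

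Other cells of the mucosa left few transcripts. No neutrophil gene of 11 was detected, 7 had no count in any library, S100a8 and S100a9 among them, and the list summed to 2.38e-05% of the per-length total. No B-cell gene of 10 and no red blood cell gene of 7 was detected. Of 10 plasma cell genes 3 were detected, Igkc at 1.71, 6.72, 4.63 and 9.28 CPM, Ighm and Igha, all highest in library 4 and lowest in library 1. Over all detected genes these shares were 21.6% and 25.1%. Of 18 macrophage and dendritic cell genes 7 were detected, and Lyz2 made up 56.9% of the list's sum. Lyz2 shares 32.8% of its 31-base words and 5.96% of its 75-base words with another gene. For Lyz1 these shares are 34.2% and 6.22%, and its mean was 20306 CPM against 30.5 CPM for Lyz2. Whether reads of Lyz1 were counted for Lyz2 was not tested. Mcpt1 and Mcpt2, proteases of mucosal mast cells, were the detected members of 11 mast cell and eosinophil genes, with Mcpt1 at 13.7, 7.35, 8.06 and 6.06 CPM. Endothelial genes (3 of 12 detected) and those of enteric neurons and glia (1 of 11) summed to 3.73e-04% and 2.28e-04%. Of 16 fibroblast and smooth muscle genes 7 were detected. Their sum was 29.5, 83.9, 51.9 and 61.2 CPM, and Dcn, a matrix proteoglycan, was at 3.51, 25.4, 10.7 and 11.2 CPM. Dcn is also a member of a set of genes of the mesothelium, the outer lining of the gut. The set was collected after its values were seen, so its common order is no independent support. Of 9 such genes 7 were detected, all highest in library 2 and lowest in library 1, with Upk3b at 3.51, 17.2, 11.4 and 9.76 CPM and Igfbp6 at 4.89, 26.7, 16.9 and 16.5 CPM.

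Genes that respond to handling were compared because dissociation took place before lysis. Of 17 immediate-early genes 15 were detected, and the CPM sum was 552, 694, 555 and 682, higher in libraries 2 and 4. Jund was at 105 ± 11.5 TPM and Egr2 at 0.271 ± 0.0482 TPM. The heat shock sum was 6343, 5456, 6157 and 5364 CPM, led by Hspa8, a constitutive chaperone, at 1274 ± 116 TPM, while the stress-induced Hspa1a was at 0.878 ± 0.182 TPM. Of 15 clock genes 13 were detected and 9 were highest in library 1, against 29.9% of all detected genes. Arntl (BMAL1) was at 57.2, 54.0, 47.1 and 45.5 CPM. Xist, the RNA of the inactive X chromosome, was at 343, 231, 218 and 208 CPM, and the Y-linked genes Ddx3y and Uty had no count in any library. Kdm5d, also Y-linked, had a few counts in each, at 0.369, 0.445, 0.219 and 0.0891 CPM.

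The spread between libraries was small for most genes. Over 8684 genes with a mean of at least 10 CPM the median CV was 9.33%, with the tenth and ninetieth percentiles at 4.49% and 18.3%. Counting error alone would give a median of 3.51%. The median CV was 10.4% between 10 and 30 CPM, 8.27% between 100 and 300 CPM and 12.1% at 1000 CPM or more, while the CV from counting fell from 5.07% to 0.513% over these ranges. The common biological coefficient of variation that edgeR estimated over 13010 genes was 14.7%. A CV above 20% was found for 677 genes (7.80%) and one above 50% for 60 genes (0.691%). Of these 60 genes, 41 were highest in library 4 and 33 were lowest in library 2. Over all detected genes these shares were 21.6% and 25.9%. Of the 677 genes, 179 were highest in library 4 and 167 were lowest in library 2. The median absolute log2 difference between pairs of libraries ran from 0.11 (libraries 2 and 4) to 0.17 (libraries 1 and 2). Yet libraries 2 and 4 also had the most genes that differed more than 2-fold, 120, and libraries 1 and 2 the fewest, 34.

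**Figure D4:**
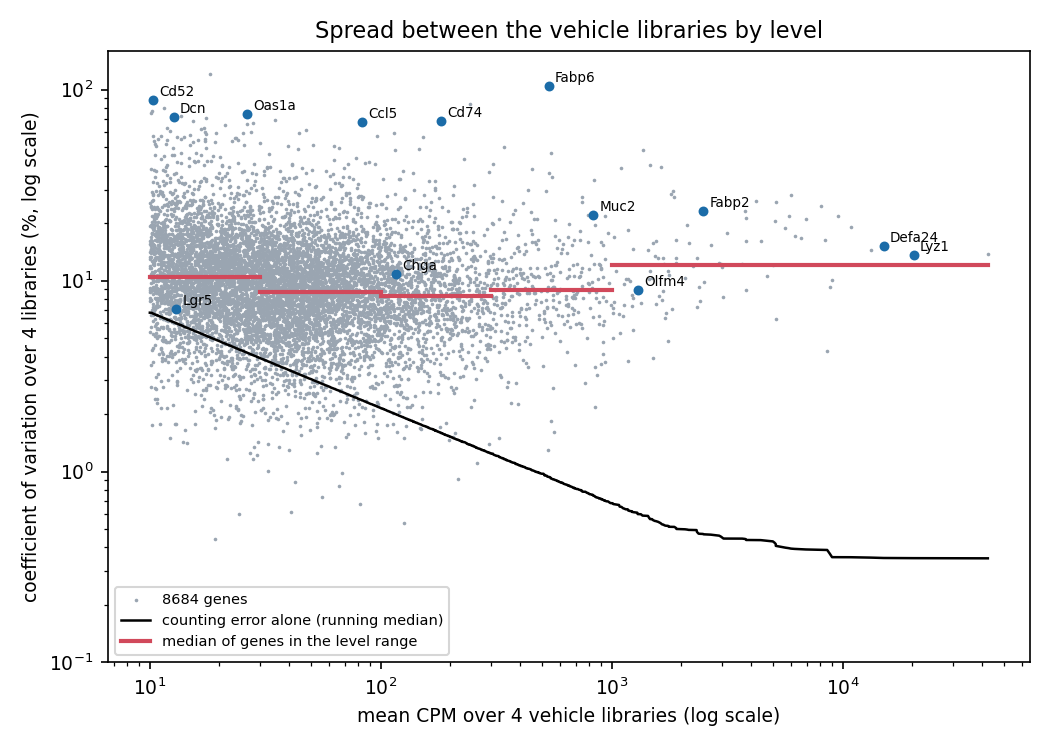
Coefficient of variation over the 4 vehicle libraries (percent, log axis) against mean CPM (log axis) for 8684 genes, with the running median of counting error and the median CV in each level range. Fabp6 had a CV of 104%, Lgr5 7.12% and Lyz1 13.6%, and the medians stayed between 8.27% and 12.1% while counting error fell.

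The 12 genes of highest CV belonged to a few of the groups above. Fabp6 (CV 104%) and Slc10a2 (77.3%) are bile acid genes. Cd74 (68.4%) and H2-DMb1 (75.1%) are MHC class II genes, Oas1a and Oasl2 interferon-stimulated genes and Dcn a stromal gene. Cd52 (4.06, 5.08, 8.46 and 23.6 CPM), Coro1a (18.4, 15.4, 37.8 and 68.1 CPM), Lsp1 and Ccl5 are leukocyte genes, each highest in library 4. Slc13a1, a sulfate transporter, was at 21.3, 20.6, 14.2 and 55.9 CPM, an order like that of Fabp6. Which genes fill these places depends on single libraries, since 7, 5, 7 and 3 of the 12 remained without replicates 1, 2, 3 and 4. The 12 genes of lowest CV were Rhbdf2, Stk24, Parp2, Vps36, Nudt3, Elovl7, Hgs, Elp2, Ctdsp2, Ppp1r2, Sharpin and Pdha1. Their CVs of 0.446% to 1.11% were each below the CV that counting alone would give at the gene's level. Stk24, a kinase, was at 127, 127, 126 and 126 CPM and Pdha1, a subunit of pyruvate dehydrogenase, at 264, 257, 259.5 and 259 CPM.

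**Figure D5:**
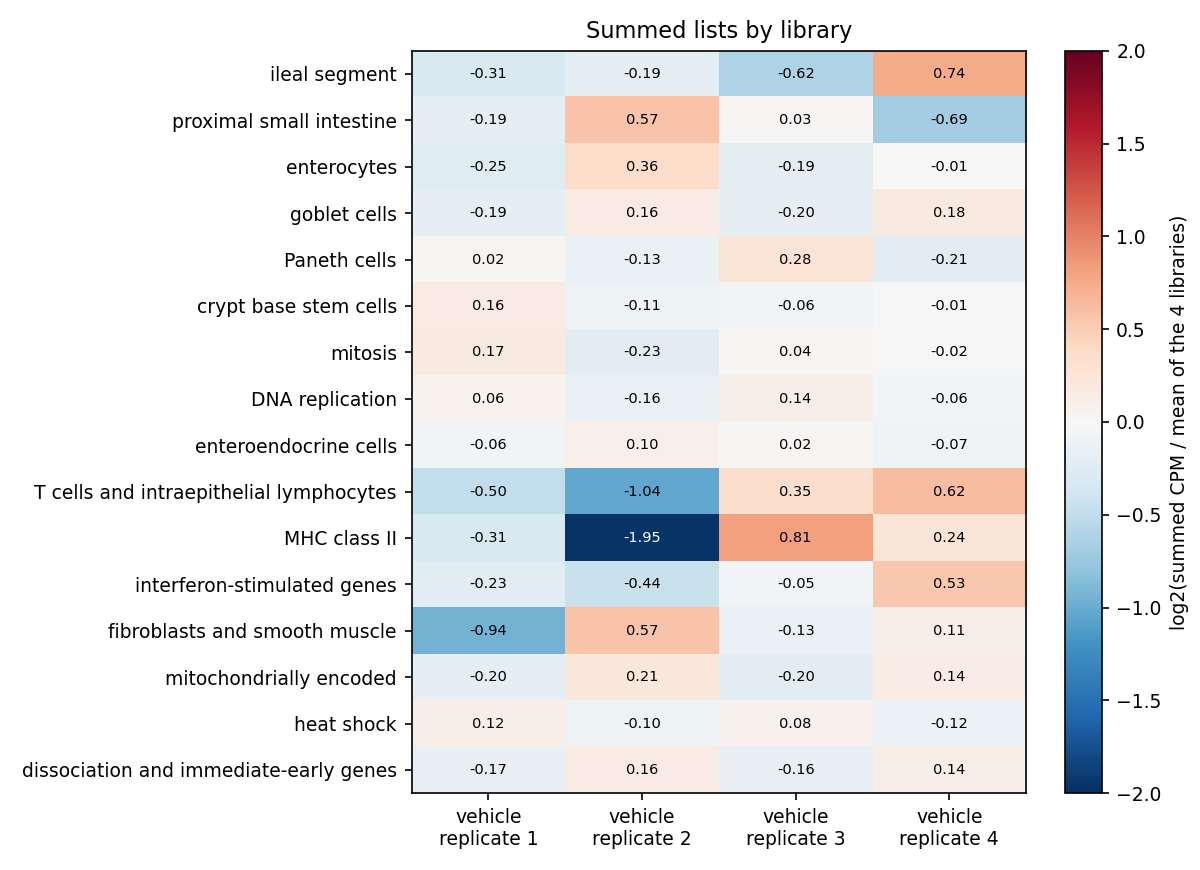
Summed CPM of 16 marker lists in each vehicle library, as log2 of the ratio to the mean of the 4 libraries (colour and number in each cell, red above and blue below the mean). MHC class II ran from -1.95 in replicate 2 to 0.81 in replicate 3, and the ileal segment list from -0.62 in replicate 3 to 0.74 in replicate 4.

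Seen by library, the differences fell into 4 profiles. Library 1 was the highest in CPM for stem cell (14 of 20), mitosis (20 of 35) and clock genes (9 of 13), against 29.9% of all detected genes. It was the lowest for ribosomal protein, fibroblast and mesothelium genes, the first and last of which were collected after their values were seen. Library 2 was the highest for enterocyte genes and the lowest for MHC class II, T-cell and mitosis genes. Library 3 was the highest in CPM for Paneth, MHC class II, DNA replication (24 of 39) and ribosomal protein genes. Over all detected genes 26.7% were highest in library 3. In TPM the DNA replication sum was highest in library 1, at 982 against 927 in library 3. Library 4 was the highest for ileal, T-cell and interferon-stimulated genes and the lowest for 18 of 31 Paneth genes and the proximal list. Over all detected genes 24.1% were lowest in library 4. Removing each library's trend on gene length took the median CV from 9.33% to 8.67%. The part of gene length in these profiles was not tested. With 4 libraries from 1 group, differences between mice, in the stretch of ileum taken and in handling cannot be told apart.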

How the data were processed

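RNA from unsorted ileal crypt cells was sequenced on an Illumina platform, and the 4 vehicle libraries of 8 were used. The authors deposited 1 table of estimated counts per gene with a length column. Per the submitters' processing notes, Bowtie2 2.4.1 and genome build GRCm38.p6 were used. The counting program, its annotation and its strand setting were not given in the sources used here. Of the values, 10.3% to 10.8% per library were not whole. The length equals that of a GENCODE M21 transcript for 99.2% of 55141 genes, and for 85.3% it is the longest, so TPM understates genes whose cells use a shorter transcript. The 543 rows without a gene name (0.519% to 0.662% of the count) were left out, and 0 further columns of per-sample values were present.

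CPM used TMM factors (0.979 to 1.03) from edgeR 4.0.16 with limma 3.58.1 in R 4.3.3 on counts rounded to whole numbers. TPM and all sums were computed in Python 3.11.15 with pandas 2.3.3 and numpy 2.4.6, and plots with matplotlib 3.10.9. A gene was called detected at 1 CPM or more in all 4 libraries, and spread was described for means of 10 CPM or more. The dispersion step was tested on simulated data. No test was run, since 1 group was described.

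The 35 gene lists were chosen with earlier results of these data known. Genes named by rule were the 15 highest nuclear genes with and without ribosomal proteins, up to 4 highest members and the lowest of each list, the 6 markers with Mki67, Aim2, Casp1, Il18, Gsdmd and Top1, and the 12 genes of highest and of lowest CV, without predicted models, receptor segments and pseudogenes. Other members, and the sets collected by name, were chosen after their values were seen. Siglec5 and Ahsp were not analysed here. Some results that the rule would name are not reported here. Alternatives were other scalings, lengths, detection limits and level limits, shares of counts, sums without the mitochondrial genes or the highest member, sums with the unnamed rows, and leaving out each library.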

Additional observations from a re-analysis of the deposited data

Results flagged for a closer look

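In 4 libraries, 1 value was picked out where its gap to the nearest other library was a larger part of the whole range than Dixon's 95% critical value. Chance does this for about 1 in 20 sets of values. For the 41 list sums looked at that would be 2.05 if they were independent, against 2 found. They are not independent, since several lists share genes and some sets were collected after their values were seen. Of 161 named genes 14 were found, and no chance count applies to them, because the named genes include those picked for the highest and the lowest CV over the same libraries. Fabp6, Oas1a, Oasl2, Slc13a1, Elovl7 and Sharpin are among those picks. None of these gaps was tested further.

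Replicate 4 held the highest value of 6 genes. Fabp6 was at 1359.7 CPM there against 171 to 369 in the others. Irf7 was at 89.4 CPM against 34.0 to 43.3, Oas1a at 55.5 against 12.9 to 20.0, and Oasl2 at 52.6 against 15.99 to 19.9. Slc13a1, a sulfate transporter, was at 55.9 CPM against 14.2 to 21.3. The gap was small in absolute terms for Elovl7, a fatty acid elongase, at 56.3 CPM against 55.5 to 55.6. Sharpin, a subunit of the linear ubiquitin ligase complex, was lowest in replicate 4 at 31.9 CPM against 32.5 to 32.6. Both Elovl7 and Sharpin are among the genes of lowest CV.

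Replicate 1 stood above the others for the summed mast cell and eosinophil list at 26.5 TPM against 11.6 to 13.3, with Mcpt2 at 6.60 CPM against 3.03 to 3.46. It also stood above them for the sex-linked list at 24.5 TPM against 13.99 to 15.7, of which Xist made up 99.7%. Mptx1 was at 5.52 CPM there against 3.27 to 3.46, the circadian factor Clock at 54.2 against 38.1 to 40.6, and the mitotic protein Cenpf at 32.4 against 19.2 to 20.6.

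Replicate 3 was highest for Pglyrp1 at 111.02 CPM against 86.6 to 90.4 and for Pycard at 521 against 416 to 429.6. Replicate 2 was highest for Sparc, a matrix protein, at 9.43 CPM against 2.08 to 3.15. The rows without a gene name, which no result uses, held up to 0.662% of a library's count, the highest share being that of replicate 3.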

How the results depend on the processing

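Scaling by total count, RLE or upper quartile moved no marker level, and no alternative reversed a direction, as 1 group has none. Of the values of the main results, 152 moved by less than the spread between libraries or, for the number of detected genes, the median CV and the common coefficient of variation, by less than 1.5 times. The other 22 moved by more than the spread. With GENCODE exon lengths, Lyz1 was at 24221, Olfm4 at 662, Muc2 at 176, Chga at 63.8 and Lgr5 at 1.92 TPM. As shares of counts, the top 10, 100 and 1000 genes held 14.6%, 36.3% and 65.1%. Also as shares of counts, Paneth genes held 11.8%, enterocytes 2.12%, goblet cells 1.55%, stem cells 0.222%, enteroendocrine cells 0.105% and tuft cells 0.00566%. Both changes follow from how length enters. Without each list's highest member these sums were 23.6% (Paneth), 1.01% (enterocytes), 1.12% (goblet), 0.0303% (stem) and 0.0613% (enteroendocrine). Without mitochondrial genes, the top 100 held 56.4%, the top 1000 held 81.2% and enteroendocrine genes 0.120%.

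Leaving out 1 library at a time gave Paneth sums of 26.6% to 29.0%, stem sums of 0.120% to 0.131%, MHC class II sums of 0.0297% to 0.0475%, and ileal sums of 0.121% to 0.235%, the lowest without replicate 4. Detected genes numbered 12077 to 12117 in the same way, against 12895 at 0.5 CPM, 12758 at 1 CPM in at least 2 libraries, 13045 at 10 counts and 11048 at 1 TPM. The median CV was 8.23% to 9.35% without 1 library, 11.2% at 1 CPM or more, 8.62% at 50 CPM or more and 8.67% after each library's trend on gene length was removed. The 12 most variable genes were shared in full under the other scalings, and 8 of 12 by the SD of log2(CPM + 0.5). At this depth none of the B-cell, neutrophil and red blood cell genes passed the detection limit. No paired analysis was possible because 1 group was described and no test was run.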
